A study of Mus musculus with 4 samples.

Results

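This account concerns 8 genes for the sensing and breakdown of extracellular purines, among the 55385 genes counted in dendritic cells of the mouse spleen: the nucleotide receptors P2ry12, P2ry6, P2ry14 and P2rx7, the adenosine receptors Adora3 and Adora2a, and the ectonucleotidases Entpd1 and Nt5e. They were taken by symbol and had been chosen by their measured levels in these same cells, so their levels are given as a description with no test. RNA and surface proteins were counted in the same single cells with oligonucleotide-tagged antibodies, and the study was designed to follow the tolerogenic maturation of wild-type (WT) splenic type 1 conventional dendritic cells (cDC1). Both libraries hold cells of untreated, steady-state WT C57BL6 mice, with no age stated in the labels. There is no treated or mutant group, and the labels do not say whether each library is 1 mouse, so spreads between libraries may be technical. Cells were enriched by negative selection, stained, and sorted into an excess of cDC1 (CD64neg CD11cpos MHCIIpos XCR1pos CD172aneg), fewer cDC2 (the reverse for XCR1 and CD172a) and random live cells, so the numbers of cells per class were set by the sort and are not results.

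ATP and other nucleotides that leave stressed or dying cells act on ligand-gated P2RX channels and on G-protein-coupled P2RY receptors. The ectoenzyme CD39, the product of Entpd1, takes ATP and ADP down to AMP, and CD73, the product of Nt5e, turns AMP into adenosine, which acts on the adenosine receptors. In immune cells ATP through the P2RX7 channel is known as a trigger of the inflammasome, and adenosine through the Adora2a receptor raises cyclic AMP and restrains activation. Conventional dendritic cells that mature take on the chemokine receptor Ccr7 and the actin-bundling protein Fscn1 and move to T cell areas.

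The antibody readouts of 4 of these proteins were counted through a short barcode on each antibody, shown here because every surface value given rests on these 15 bases (lower case, 5′ to 3′, from the deposited antibody reference). The antibody reference lists none for the products of P2ry6, P2ry14, Adora3 and Adora2a.
P2RY12: ttgcttatttccgca
CD39: gcgtatttaacccgt
CD73: acacttaacgtctgg
P2X7R: tgcttcattcatgtg

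The genes lie on 6 chromosomes (mouse build GRCm38.p6, RefSeq). P2ry14 (chr3:59114623-59153492) and P2ry12 (chr3:59216271-59262985) are neighbours inside the span of Med12l (chr3:59005419-59318446), which also holds Gpr171 and P2ry13. Adora3 (chr3:105904421-105908928) lies inside Tmigd3 (chr3:105870858-105924044), P2ry6 on chr7:100937630-100975498, P2rx7 on chr5:122643927-122692336, Adora2a on chr10:75316877-75334792, Entpd1 on chr19:40612366-40741602 and Nt5e on chr9:88327609-88372089. Windows from 250 bases before to 50 after a start site were listed for 6 of the 8 genes, with 11 windows in all, and P2ry6 and Adora2a had no entry. The AP-1 motif TGANTCA, searched on both strands, occurred in 4 of these 11 windows, of the 3 genes P2ry14, Adora3 and P2rx7, against 7.81% of all 32851 windows. The LXR response element (AGGTCA repeated with 4 bases between) occurred in none of the 11 and in 0.0152% of all windows. The composite of GGAA and GAAA with 2 bases between and the interferon element of GAAA and GAAA with 2 bases between, present in 2.72% and 3.44% of all windows, were not found in the 11 either. The 250 bases before a start of each of these 3 genes are shown 5′ to 3′ on the gene's strand with the TGANTCA match in capitals. A match is a string of letters and no evidence of binding.
P2ry14, minus strand, chr3:59153493-59153742: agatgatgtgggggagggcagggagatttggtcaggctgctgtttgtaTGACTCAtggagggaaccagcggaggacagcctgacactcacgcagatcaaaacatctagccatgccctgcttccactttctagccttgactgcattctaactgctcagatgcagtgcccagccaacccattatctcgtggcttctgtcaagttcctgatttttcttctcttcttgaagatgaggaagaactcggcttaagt
Adora3, plus strand, chr3:105904171-105904420: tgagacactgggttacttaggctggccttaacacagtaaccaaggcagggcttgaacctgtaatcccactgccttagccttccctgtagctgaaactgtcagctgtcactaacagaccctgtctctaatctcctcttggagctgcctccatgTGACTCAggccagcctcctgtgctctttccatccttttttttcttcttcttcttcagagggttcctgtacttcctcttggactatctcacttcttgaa
P2rx7, plus strand, chr5:122643677-122643926: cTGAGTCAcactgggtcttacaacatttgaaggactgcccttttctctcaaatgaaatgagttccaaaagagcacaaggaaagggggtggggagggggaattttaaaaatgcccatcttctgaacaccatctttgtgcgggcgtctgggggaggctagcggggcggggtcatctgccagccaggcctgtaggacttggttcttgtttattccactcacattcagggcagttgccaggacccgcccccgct

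After filters, 12166 cells of library 1 and 15976 of library 2 were kept, with medians of 6941.5 and 6884.5 RNA UMIs (counted molecules) and 896 and 823 antibody UMIs. In all value pairs library 1 comes first. Lineage was read from the antibodies (cDC1: at least 2 XCR1 UMIs and at least 2 times the CD172a UMIs, cDC2: the reverse) and the maturation step from RNA: immature with no Ccr7 or Fscn1 UMI, intermediate with at least 3 Ccr7 and at most 1 Fscn1, late with at least 10 Ccr7 and at least 3 Fscn1. The steps are an order of marker level, not of time. There were 5408 and 8078 immature, 170 and 184 intermediate and 134 and 166 late cDC1, and 1496 and 1674, 265 and 256, and 81 and 94 cDC2 in the same order. A further 140 and 128 late cells met neither lineage rule. Among the other cells were clusters named from marker genes as pDC-like (plasmacytoid dendritic cells, 77 and 77), T-like (861 and 730), NK-like (397 and 602) and B-like (129 and 158). Median UMIs per cell were 9094.5 and 8065.5 in immature cDC1, 5598 and 5646 in late cDC1, 4055.5 and 3888.5 in immature cDC2, 4246 and 3661 in pDC-like and 2998 and 2770 in T-like cells. Listed markers of cell types were summed in CPM (UMIs scaled to a common total per class and library). The 14 mature dendritic cell markers summed to 16119 and 15421 CPM in late cDC1 against 817 and 929 in immature cDC1. They include Ccr7 and Fscn1, which define the steps, so part of this difference was set by the gate. The cDC1 list was lower in late cDC1, at 1637 and 2457 CPM against 5044 and 5459, and XCR1 antibody was lower too, at 30.3 and 33.9 against 59.4 and 63.9 per 10000 antibody UMIs. Red pulp macrophage markers summed to 204 and 206 CPM in late against 41.0 and 45.6 in immature cDC1, whose part in the results was not tested. The immature cDC2 gate was not pure: 180 and 212 of its cells, 12% and 12.7%, sat in clusters named cDC1-like by RNA.

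Along the steps the genes moved apart: the adenosine receptor gene Adora2a was near 0 in immature cells and highest in late cells of both lineages, while P2ry14, P2ry6, P2rx7, Adora3 and Entpd1 RNA were lower in late than in immature cDC1. P2ry14, P2ry6 and Entpd1 were lower in late cDC2 too, on 1 to 6 UMIs each per library, and for P2ry14 the difference depended on the gate. P2rx7 and Adora3 had too few UMIs in late cDC2 to show a direction. P2ry12 and Nt5e RNA were too rare in dendritic cells to be followed. The summed counts of 6 of the 8 genes passed the filter on low counts, and P2ry12 and Nt5e did not. Comparing whole profiles, edgeR called 61.0% of 9169 genes changed between late and immature cDC1 (28.1% higher and 32.9% lower), so a change at this step is common among genes, and nothing is read from the members' directions, which the choice of genes used.

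P2ry14, the receptor for UDP-glucose and related sugars, had the most RNA of the 8 genes, with 43451 UMIs in all kept cells. In immature cDC1 it stood at 256 and 267 CPM, in intermediate cDC1 at 139 and 154, and in late cDC1 at 28.9 and 60.9. The 2 libraries did not overlap between any pair of these steps. A UMI was found in 80.3% and 81.1% of immature cDC1, 49.4% and 50.5% of intermediate cDC1, and 9.70% and 19.9% of late cDC1 (exact 95% interval in library 1, 5.27% to 16.0%). With every cell thinned to 3000 UMIs the shares were 50.2% and 52.4%, 28.8% and 29.9%, and 4.80% and 10.24%, in the same order at matched depth. The mean level was 1.78-fold lower in intermediate and 5.82-fold lower in late than in immature cDC1 (log2 difference in late cells −3.14 and −2.13). With called doublets kept, which also meant clustering the cells anew and left 4218 and 6765 immature and 163 and 203 late cDC1, the mean log2 difference was −1.56 in place of −2.54.

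In immature cDC2 the P2ry14 level was 59.5 and 65.2 CPM, 4.19-fold below immature cDC1 on the mean, and 17.9 and 21.7 CPM once the cells in cDC1-like clusters were left out. In late cDC2 it rested on 2 and 6 UMIs, 5.84 and 16.6 CPM. The late to immature difference in cDC2 was −2.48 on the log2 scale with the antibody gate. With lineage in accord between antibody and RNA cluster it was −0.82, so in cDC2 its size depends on the gate. With that accord intermediate cDC2 had 23.9 and 32.2 CPM, above immature cDC2, so the steps showed no ordered fall. Late cells with no lineage call had 33.1 and 38.7 CPM, near late cDC1.

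Outside the conventional dendritic cells, pDC-like cells had 394 and 373 CPM of P2ry14, with a UMI in 70.1% and 62.3% of cells, above immature cDC1 in both libraries. T-like, NK-like and B-like cells had 14.7 to 36.4 CPM, with a UMI in 3.72% to 7.59% of cells. Since free RNA of the abundant cDC1 can enter any droplet, the counts were set beside Xcr1, a cDC1 receptor. There were 0.524 and 0.474 P2ry14 UMIs per Xcr1 UMI in immature cDC1, 0.84 and 0.692 in T-like, 0.857 and 0.769 in NK-like, 0.444 and 0.405 in B-like and 16.6 and 8.5 in pDC-like cells. The T-like and NK-like ratios lay above that of immature cDC1 in both libraries, and the B-like ratio lay below it. Whether the low counts in lymphocytes are expression or free RNA was not tested. The pDC-like ratio stood far above that of cDC1. In late cDC1 the ratio was 0.294 and 0.455, so P2ry14 was lower together with Xcr1 itself. Within immature cDC1 the level also varied by cluster, from 351 and 335 CPM in cluster 0 to 66.7 and 70.9 in a cluster of 213 and 133 shallower cells.

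**Figure D1:**
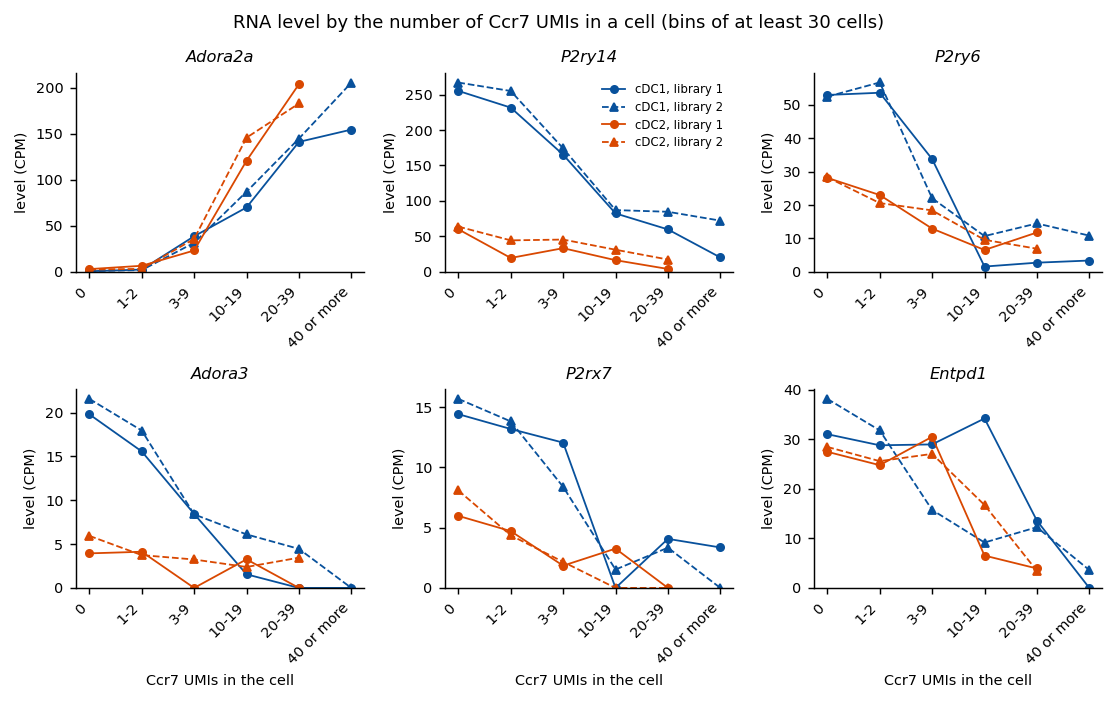
Mean level (CPM, y axis) of 6 of the genes in cells grouped by Ccr7 UMIs (x axis), for cDC1 (blue) and cDC2 (orange) in library 1 (circles, solid lines) and library 2 (triangles, dashed lines), with bins of at least 30 cells. Adora2a in cDC1 goes from 0.559 and 0.786 CPM with no Ccr7 UMI to 155 and 206 with 40 or more. In cDC1 the other 5 genes lie lower with 20 or more Ccr7 UMIs than with none, and Entpd1 of library 1 is still at 34.2 CPM with 10 to 19. In cDC2 P2rx7 and Adora3 have too few UMIs in the high bins to show a direction.

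P2ry6, the receptor for UDP, followed the same order at a lower level. It stood at 53.0 and 52.4 CPM in immature cDC1, 21.3 and 19.1 in intermediate cDC1, and 0 and 10.3 in late cDC1, where it rested on 0 and 11 UMIs. A UMI was present in 36.6% and 33.9%, then 14.7% and 13%, then 0% and 5.42% of these cells, and 0 of 134 late cells in library 1 allows a share of cells with a UMI of up to 2.24% (3 counts of the total). In library 1 the late level was thus at least 3.93 below the immature level on the log2 scale, computed against a floor of 3 counts (−3.93), and in library 2 the log2 difference was −2.35. By Ccr7 bin the level held at 53.0 and 52.5 CPM with no Ccr7 UMI and 53.7 and 56.7 with 1 or 2, was 33.8 and 22.0 with 3 to 9, and was 1.55 and 10.7 with 10 to 19. In cDC2 it was 28.3 and 28.6, then 13.4 and 16.8, then 5.84 and 5.53 CPM (2 and 2 UMIs in late cells), 5.01-fold lower in late than in immature cells. pDC-like cells had 20.7 and 12.5 CPM and the lymphocyte classes between 2.63 and 9.70, below both immature lineages. With doublets kept and cells clustered anew, the mean difference in cDC1 was −1.20, against −3.36.

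P2ry12, an ADP receptor known from platelets and microglia, was nearly absent as RNA, with 200 UMIs in all kept cells. In immature cDC1 there were 45 and 61 UMIs, 0.885 and 0.889 CPM, in 0.814% and 0.730% of cells. Intermediate cDC1 held 1 UMI in each library, and late cDC1, intermediate cDC2 and late cDC2 held none, which in late cDC1 allows a share of cells with a UMI of up to 2.24% and 1.81%. The highest level was in pDC-like cells, at 23.7 and 25.1 CPM from 8 and 8 UMIs, in 9.09% (exact 95% interval 3.73% to 17.8%) and 7.79% (2.91% to 16.2%) of cells.

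Antibody to P2RY12 gave another order. It left a UMI on 17.7% and 18.2% of immature cDC1, 28.2% and 31.0% of intermediate cDC1 and 43.3% and 36.7% of late cDC1 (exact 95% intervals in late cells 34.8% to 52.1% and 29.4% to 44.6%). Cells with at least 2 UMIs made up 2.98% and 2.66% of immature and 23.9% and 17.5% of late cDC1. By Ccr7 bin the share with a UMI was 17.8% and 18.3% with no Ccr7 UMI and 43.9% and 45.9% with 40 or more. Per 10000 antibody UMIs the level was 1.96 and 2.15 in immature and 7.38 and 7.75 in late cDC1, a log2 ratio of 1.91 and 1.85. Late cDC2 resembled late cDC1 in value, at 32.1% and 33.0% of cells against 12.4% and 12.4% in immature cDC2, and so did late cells without a lineage call, at 41.4% and 32.8%. T-like cells carried it on 7.43% and 8.22% and pDC-like cells, where the RNA was highest, on 15.6% and 14.3%. Single cells weighed on some means: in intermediate cDC1 of library 1, a cell with 104 UMIs held 56.5% of the class total, and the level was 7.29 per 10000 with it and 3.20 without it.

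The signal was low throughout and has to be read against control antibodies meant to bind no mouse antigen. Of the rat isotype controls, IgG1_Rat_l marked 25.1% and 20.8% of immature and 26.9% and 21.7% of late cDC1, and IgG1_Rat_k 15.2% and 17.0% and then 24.6% and 17.5%. The median control marked 4.17% and 3.71% of immature and 4.48% and 4.52% of late cells. In immature cDC1 P2RY12 was therefore no higher than IgG1_Rat_l, and in late cDC1 it stood above each of the 10 controls in both libraries. In intermediate cDC1 the highest control marked 26.5% and 28.3% of cells, near P2RY12. It marked 19.1% and 19.4% of immature cDC2, 24.7% and 19.5% of pDC-like and 17.9% and 12.7% of T-like cells, above P2RY12 in each. No order of P2RY12 is read among these classes. In late cDC2 the highest control marked 17.3% and 22.3%, below P2RY12.

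In immature cDC1, where the antibody was no higher than IgG1_Rat_l, cells with and without P2ry12 RNA carried P2RY12 antibody at similar shares, within wide intervals. Late cDC1, where the antibody stood above the controls, had no cell with P2ry12 RNA, so the comparison could not be made there. Of immature cDC1 with P2ry12 RNA, 8 of 44 in library 1 and 12 of 59 in library 2 had an antibody UMI, 18.2% (exact 95% interval 8.19% to 32.7%) and 20.3% (11.0% to 32.8%), against 17.7% and 18.2% of those without RNA. The Pearson correlation across these cells was 0.01 in each library, where nearly all cells are at 0 RNA. Over all kept cells 15 of 83 and 19 of 110 RNA-positive cells had an antibody UMI, 18.1% and 17.3% against 16.4% and 17.3%. In pDC-like cells antibody was seen on 2 of 7 and 0 of 6 RNA-positive cells.

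**Figure D2:**
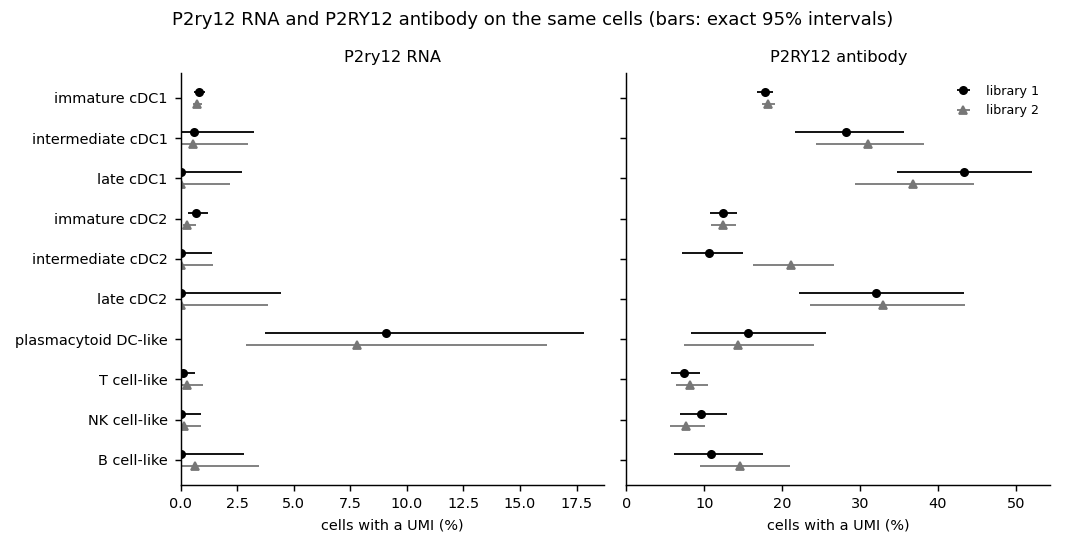
Share of cells with a UMI (percent, with exact 95% intervals for counting error) of P2ry12 RNA (left) and of P2RY12 antibody (right) in each class and library. RNA stays under 1% in immature cDC1 and is highest in pDC-like cells at 9.09% and 7.79%, while antibody is highest in late cDC1 at 43.3% and 36.7%.

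P2rx7, the ATP-gated channel, stood at 14.4 and 15.7 CPM in immature cDC1, 6.64 and 6.36 in intermediate cDC1 and 4.63 and 1.87 in late cDC1, the last from 4 and 2 UMIs. A UMI was found in 12.5% and 12.2% of immature and 2.24% and 1.20% of late cDC1. Immature cDC2 had 6.12 and 8.05 CPM, below immature cDC1 in both libraries. Late cDC2 had no UMI, but 3 counts there would be 8.76 and 8.30 CPM, so no lower level was detectable. T-like cells had 8.77 and 6.92 CPM, and the smaller of their clusters (number 19) held 34.9 and 16.9 CPM against 3.39 and 5.45 in the larger (number 11).

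P2X7R antibody per 10000 antibody UMIs was lower in late than in immature cDC1, on a scale unlike that of the RNA, but the difference was not called. In cDC1 it was 12.4 and 10.5 per 10000 antibody UMIs in immature, 8.05 and 7.60 in intermediate and 6.96 and 6.52 in late cells, with a UMI on 71.5% and 62.6% of immature and 56.7% and 58.4% of late cells. In the model over all antibodies the log2 fold change in late cDC1 was −0.35 (95% interval −0.81 to 0.10, edgeR adjusted p = 0.202) and in late cDC2 −0.30 (−0.79 to 0.20, edgeR adjusted p = 0.392). Both intervals include no difference as well as a lower level. Over all antibodies 38.2% of 170 were called in late cDC1 (39 higher, 26 lower) and 25.9% in late cDC2 (22 and 22). Scaled to the isotype controls in place of all antibodies, these splits were 13 and 5 in cDC1 and 16 and 3 in cDC2, and without IgG1_Rat_l among the controls 12 and 41 and 17 and 4, so directions of small antibody differences depend on the scaling. Among T-like cells 15 of 23 and 10 of 15 P2rx7-positive cells had an antibody UMI, 65.2% (exact 95% interval 42.7% to 83.6%) and 66.7% (38.4% to 88.2%), against 18.4% and 17.8% of P2rx7-negative cells. Cluster 19 was above cluster 11 in the antibody too, with a UMI on 39.9% and 48.8% against 15.3% and 15.1% of cells. In immature cDC1 the shares differed less, at 77.4% and 63.5% of P2rx7-positive against 70.6% and 62.4% of P2rx7-negative cells (Pearson 0.05 and 0.02).

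Entpd1 RNA was similar in immature cDC1 and cDC2, at 30.8 and 38.1 CPM and 27.6 and 28.8 CPM. The intermediate step did not separate clearly, with 33.2 and 15.9 CPM in cDC1 and 27.6 and 26.2 in cDC2. In late cDC1 the level was 6.95 and 5.62 CPM (6 and 6 UMIs), 5.48-fold lower than in immature cDC1 on the mean, and in late cDC2 it was 2.92 and 13.8 CPM from 1 and 5 UMIs. The share of cells with a UMI was 22.4% and 24.6% in immature, 20.6% and 11.4% in intermediate and 2.24% and 3.61% in late cDC1. The log2 difference in late cDC1 was −2.45 on the mean, −1.38 with doublets kept and −1.54 with a gate of 4 antibody UMIs. Other classes had 35.6 and 21.9 CPM in pDC-like cells, 11.3 and 14.9 in NK-like and 6.67 and 5.62 in T-like cells. Within immature cDC1 cluster 0 had 54.1 and 61.8 CPM and cluster 7 had 15.8 and 14.8.

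CD39, the protein, differed less between late and immature cells than its RNA, on a scale of its own. It stood at 110.7 and 141.0 per 10000 antibody UMIs in immature, 95.7 and 111.3 in intermediate and 72.1 and 91.6 in late cDC1, with medians of 9 and 11, 10.5 and 11, and 8 and 9 UMIs per cell. In cDC2 it was 83.4 and 85.7, then 66.6 and 62.1, then 48.7 and 52.4. Late cells were lower in each library and lineage on this scale, but the model over all antibodies gave log2 −0.21 (95% interval −0.59 to 0.17, edgeR adjusted p = 0.377) in late cDC1 and −0.23 (−0.62 to 0.15, edgeR adjusted p = 0.389) in late cDC2. When only antibodies above the isotype controls other than IgG1_Rat_l were modelled, the change was 0.0212 in late cDC1 and −0.49 (edgeR adjusted p = 0.0325) in late cDC2, where it passed the threshold. pDC-like cells had 45.6 and 56.3 and T-like cells 20.9 and 25.9 per 10000, and the small plasma cell-like cluster 853 and 609 at an Entpd1 RNA level of 24.4 and 47.9 CPM. Immature cDC1 with an Entpd1 UMI carried a mean of 17.3 and 20 CD39 UMIs, against 11.7 and 13.1 in those without (Pearson 0.21 and 0.25 across cells that share a library and differ in depth).

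**Figure D3:**
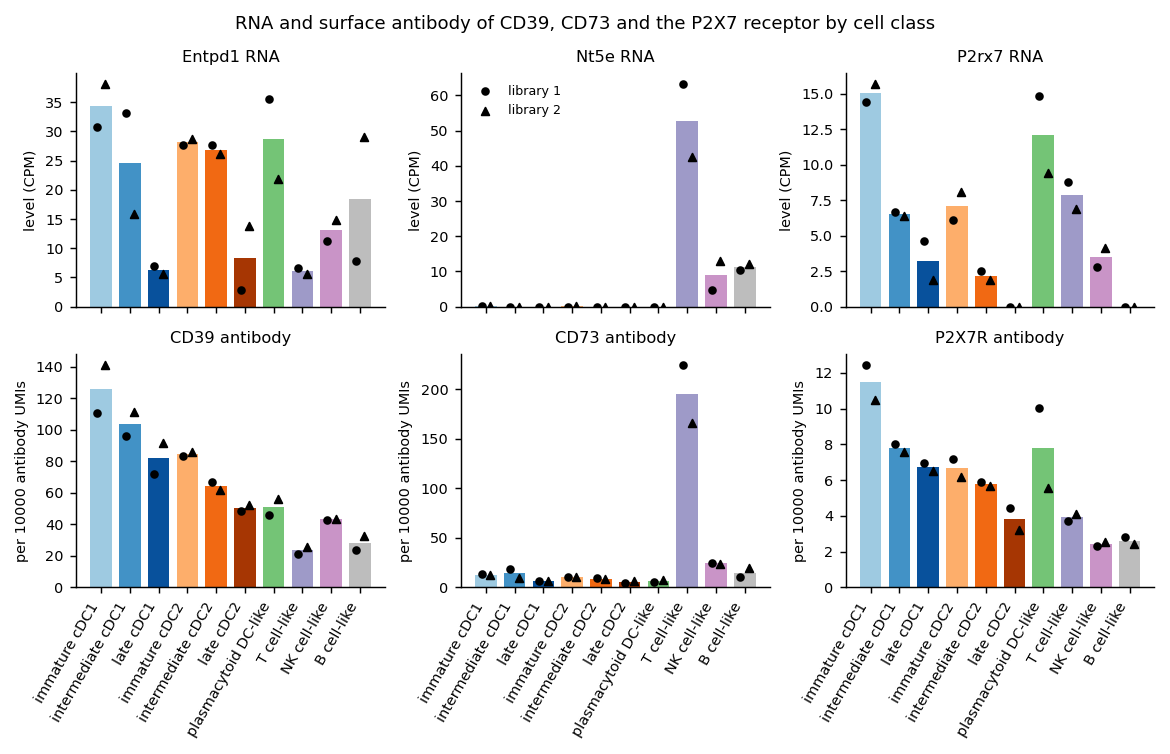
RNA level (CPM, top) of Entpd1, Nt5e and P2rx7 above the antibody level (per 10000 antibody UMIs, bottom) of CD39, CD73 and P2X7R in each class and library. Entpd1 RNA in late cDC1 is at 6.95 and 5.62 CPM where CD39 is at 72.1 and 91.6, and Nt5e and CD73 are highest in T-like cells.

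Nt5e RNA was a gene of the T-like cells here. They had 63.2 and 42.4 CPM (180 and 98 UMIs, in 15.4% and 10.8% of cells), and the smaller T-like cluster (19) had 135 and 112 CPM against 48.3 and 32.2 in the larger (11). NK-like cells had 4.72 and 13.1 and B-like cells 10.5 and 12.1 CPM. Immature cDC1 held 4 and 5 UMIs among all their cells, 0.0786 and 0.0729 CPM, and intermediate and late cells of both lineages and pDC-like cells held none.

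CD73 antibody was likewise highest in T-like cells, at 225 and 166 per 10000 antibody UMIs (on 94.9% and 89.9% of cells) and 354 and 354 in the smaller T-like cluster. The order of the other classes was not that of the RNA: NK-like cells followed at 25.0 and 23.8, and B-like cells, above cDC1 in Nt5e RNA, had 10.2 and 19.8, the latter 7.34 without a single cell. T-like cells with an Nt5e UMI carried a mean of 32.3 and 24.0 CD73 UMIs, against 14.7 and 9.71 in those without. These cells differ in depth and mix cluster 19, with a mean of 40.7 and 35.2 CD73 UMIs, with cluster 11, with 12.4 and 8.31. The difference was not tested within a cluster. On immature cDC1 CD73 antibody was at 13 and 12.4 per 10000, and on late cDC1 at 6.75 and 6.38. A UMI was found on 63.5% and 58.1% of immature cDC1 although Nt5e RNA was nearly absent. In pDC-like cells, with no Nt5e UMI, the share was 36.4% and 35.1%. Whether the signal in classes nearly without the RNA is protein or background was not tested. The model gave log2 −0.55 (95% interval −1.12 to 0.03, edgeR adjusted p = 0.120) in late cDC1 and −0.46 (−1.06 to 0.15, edgeR adjusted p = 0.275) in late cDC2. The first passed the threshold with looser step limits (log2 −0.59, edgeR adjusted p = 0.0349) and with scaling to the isotype controls other than IgG1_Rat_l (−1.37, edgeR adjusted p = 0.0348). In late cDC2 CD73 passed when only antibodies above the isotype controls other than IgG1_Rat_l were modelled (−0.73, edgeR adjusted p = 0.0441). The highest isotype control stood at 2.69 and 6.49 per 10000 on immature cDC1 and at 4.34 and 2.08 on late cDC1, below CD73 in both libraries.

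Adora2a, the adenosine receptor that raises cyclic AMP, was at 0.531 and 0.802 CPM in immature cDC1 (27 and 55 UMIs), 37.9 and 33.1 in intermediate cDC1 (57 and 52 UMIs) and 174 and 190 in late cDC1 (150 and 203 UMIs). The late level was 273-fold higher than the immature level and the intermediate level 53.3-fold higher, with both libraries apart at each step. A UMI was found in 0.481% and 0.656%, 22.9% and 23.4%, and 71.6% (exact 95% interval 63.2% to 79.1%) and 65.7% of the cells, although late cells were the shallowest of the 3 steps. At 3000 UMIs per cell the late shares were 50.4% and 48.4%. The mean was 1.12 and 1.22 UMIs per late cDC1, and 27.6% and 31.9% of them had at least 2.

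The level was graded over Ccr7 in both lineages. In cDC1 the level was 2.38 and 1.80 CPM with 1 or 2 Ccr7 UMIs, 38.6 and 31.5 with 3 to 9, 69.9 and 87.0 with 10 to 19, 141 and 145 with 20 to 39, and 155 and 206 with 40 or more. cDC2 went from 2.14 and 2.51 CPM in immature through 23.4 and 43.9 in intermediate to 190 and 202 in late cells, an 84.3-fold difference. Late cDC1 and late cDC2 differed by −0.13 and −0.09 on the log2 scale, and late cells without a lineage call had 195 and 220 CPM. In the clusters of mature cells, it was 185 and 203 CPM in cluster 12 and 174 and 173 in cluster 10, but 21.3 and 22.0 in cluster 17, the one with the most P2ry14 of the 3 (136 and 160 CPM).

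NK-like cells had 97.2 and 122 CPM of Adora2a and T-like cells 34.7 and 37.2, the latter near the intermediate dendritic cells, while pDC-like cells (5.93 and 6.27) and B-like cells (2.63 and 7.28) had little. The 8 NK markers, of which 6 and 4 were detected and Ncr1 was at 0, summed to 63.7 and 45 CPM in late cDC1, against 95.6 and 98.8 in immature cDC1 and 14175 and 15427 in NK-like cells. The 8 T cell markers, of which 6 and 4 were detected, summed to 30.1 and 5.62 CPM in late cDC1, 90.3 and 45.2 in intermediate cDC1, 10.05 and 7.92 in immature cDC1 and 6199 and 6279 in T-like cells. The part of these markers' cells in the Adora2a levels was not tested.

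**Figure D4:**
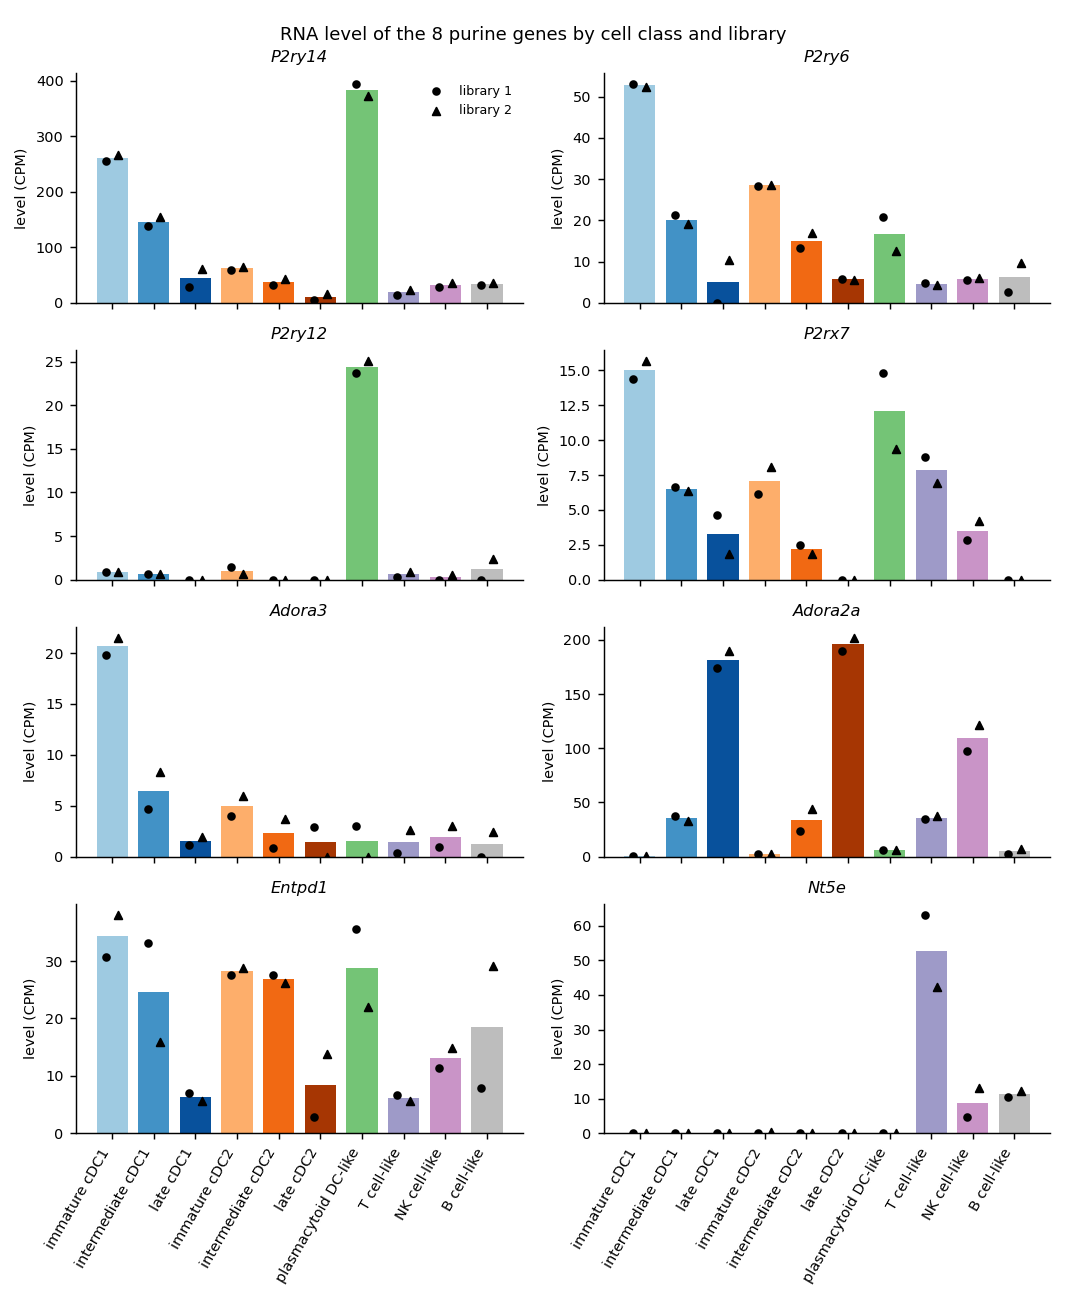
Level (CPM, bars for the mean of both libraries and points for each library) of the 8 genes in 10 classes of cells, each panel with its own axis from 0. Adora2a is highest in late cells of both lineages at 174 to 202 CPM, P2ry14 in pDC-like cells and immature cDC1, and Nt5e in T-like cells.

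Adora3, the adenosine receptor coupled to inhibition of cyclic AMP, went the other way. It stood at 19.8 and 21.5 CPM in immature cDC1, 4.65 and 8.27 in intermediate cDC1 and 1.16 and 1.87 in late cDC1, the last from 1 and 2 UMIs, so the mean difference of −3.77 on the log2 scale is imprecise (−2.17 with doublets kept). A UMI was found in 15.8% and 15.5%, 3.53% and 6.52%, and 0.746% and 1.20% of the cells. Immature cDC2 had 3.99 and 5.94 CPM, of which 0.92 and 3.05 remained without the cells in cDC1-like clusters, and late cDC2 had 2.92 and 0 from 1 and 0 UMIs. Among clusters of immature cDC1, Adora3 ranged from 30.5 and 31.4 CPM to 7.79 and 3.30, with the lowest in the same shallow cluster (15) as for P2ry14. UMIs of Adora3 and of Tmigd3, which encloses it, are counted under separate identifiers, and the Tmigd3 row was at 1.0 and 1.05 CPM in immature cDC1.

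Beyond the 8 genes, 54 other genes of the purine pathway were listed by role, of which 53 were in the matrix and 24 had counts enough to test. In late against immature cDC1, 5 were called higher and 14 lower (edgeR quasi-likelihood test, Benjamini-Hochberg adjusted over all genes), with a median log2 difference of −0.95 against −0.14 over all genes tested (9169, of which 28.1% were higher and 32.9% lower). In intermediate cDC1, 5 were higher and 8 lower (median −0.19 against −0.06), beside 19.3% of all genes higher and 20.4% lower, 39.7% in all. In late cDC2, 5 were higher and 9 lower (median −0.44 against −0.06), beside 18.7% and 16.6%, 35.3% in all. None of the 4 other P2RY receptors or 2 other adenosine receptors could be tested: P2ry13 had 38.5 and 43.9 CPM in pDC-like cells, and Adora2b was at or below 5.61 CPM in every class.

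In late cDC1 the largest change among the tested pathway genes was in Art2a, listed among the ectoenzymes of nucleotides and NAD. It rose from 0.0590 and 0.0437 CPM (3 and 3 UMIs) in immature to 16.2 and 21.5 CPM (14 and 23 UMIs) in late cDC1, log2 8.47 (SE 0.63, edgeR adjusted p = 4.78e-12). Its near-identical copy Art2b can share reads with it, and held 1 and 1 UMI in late cDC1. Art2a and Dpp4 were higher and Enpp4 lower among 5 tested ectoenzymes, with Cd38 and Bst1 not called. Among all genes tested, 28.1% were higher and 32.9% lower.

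Of 10 tested purine salvage and uptake genes, 8 fell in late cDC1 (Adk, Pnp, Ampd2, Ampd3, Hprt, Aprt, Nt5c and Slc29a1), Slc29a3 rose and Nt5c2 was not called. Over all genes 32.9% were lower and 28.1% higher at this step. Slc29a1, an equilibrative transporter that moves adenosine across the membrane, changed by log2 −1.85 (SE 0.45, edgeR adjusted p = 0.000941), and lost the call with doublets kept (−0.41, edgeR adjusted p = 0.198). Ampd3 and Ampd2, which deaminate AMP inside the cell, changed by −1.84 (SE 0.43, edgeR adjusted p = 0.000599) and −1.84 (SE 0.52, edgeR adjusted p = 0.00358). Ampd3 had no UMI in late cDC2, against 16.1 and 17.2 CPM in immature cDC2, so its fitted change there is not a size. Both lost the call in cDC1 with a gate of 4 antibody UMIs (−0.96, edgeR adjusted p = 0.131 and −1.39, edgeR adjusted p = 0.136). In late cDC2, 1 of the 10 was higher and 5 were lower, beside 18.7% and 16.6% of all genes.

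Of the 6 inflammasome genes downstream of P2rx7, 4 fell in late cDC1, where 32.9% of all genes were lower and 28.1% higher. Nlrp3, the sensor, went from 20.8 and 21.7 CPM in immature to 0 and 3.75 in late cDC1 (log2 −3.18, SE 0.50, edgeR adjusted p = 4.27e-06). Il1b, one of its cytokines, was at 1282 and 1235 CPM in immature, 1166 and 1083 in intermediate and 317 and 315 in late cDC1 (−1.81, SE 0.11, edgeR adjusted p = 9.48e-14). Pycard also fell, and Il18 changed by −1.80 (SE 0.35, edgeR adjusted p = 6.63e-05), a call lost with a gate of 4 antibody UMIs (−1.06, edgeR adjusted p = 0.0646). Gsdmd, whose cleaved product forms the pore, rose from 37.5 and 39.4 to 110 and 119 CPM (1.75, SE 0.12, edgeR adjusted p = 1.15e-12), and Casp1 was not called. In late cDC2, Nlrp3, Pycard and Il1b fell and Gsdmd rose, beside 16.6% of all genes lower and 18.7% higher. Il1b stayed higher there, at 2822 and 1798 CPM, and its change (log2 −0.48) differed from that in cDC1 (difference −1.33, edgeR adjusted p = 4.52e-07), as it did for 8.39% of all genes.

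Gpr171, the orphan receptor gene beside P2ry14, had an order like its neighbour in cDC1, at 270 and 287, then 125 and 120, then 48.6 and 31.8 CPM (log2 −2.64, SE 0.15, edgeR adjusted p = 1.96e-14), with 688 and 711 CPM in pDC-like cells. Unlike P2ry14 it was high in B-like cells, at 587 and 422 CPM. In late cDC2 its change was −1.30 (edgeR adjusted p = 0.000463), and −0.06 (edgeR adjusted p = 0.914) with lineage in accord between antibody and cluster. Among channel genes, P2rx4, named after its value was seen, changed by 0.54 (edgeR adjusted p = 0.00447) in late cDC1, and Panx1, a channel that releases ATP, was not called (−0.14, edgeR adjusted p = 0.833).

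**Figure D5:**
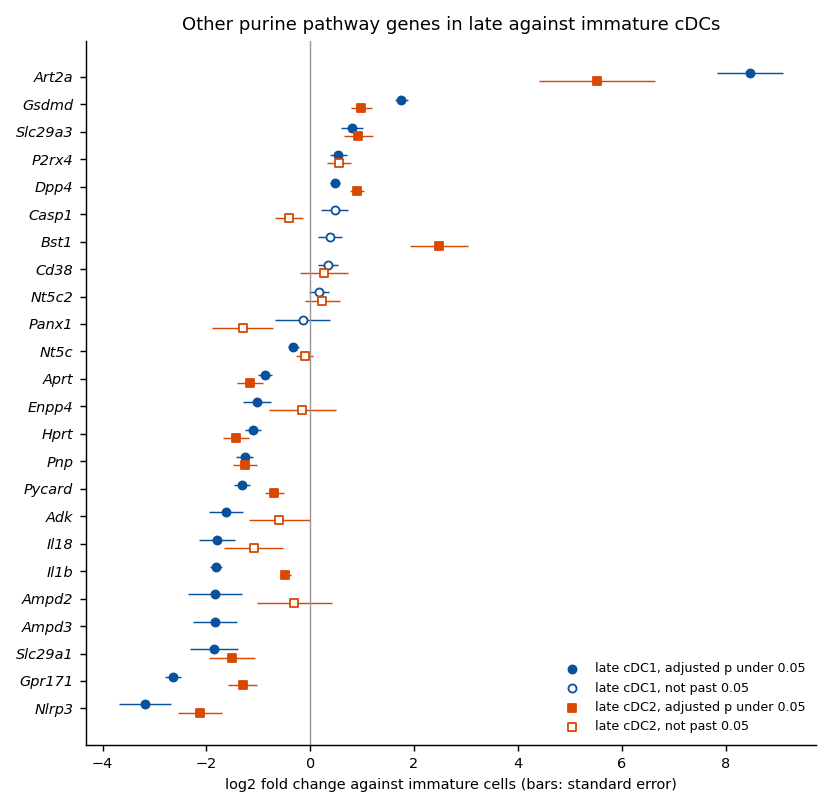
Log2 fold change (x axis, ± SE) between late and immature cells of the 24 tested pathway genes in cDC1 (circles) and cDC2 (squares), filled where the adjusted p is under 0.05. Art2a lies farthest to the right in cDC1 at 8.47 and Nlrp3 farthest to the left at −3.18, and Ampd3 has no cDC2 value drawn because both late cDC2 libraries are at 0.

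As a description of pattern, each gene was set beside 11627 others over 26 profiles (classes by library, Pearson r of log2(CPM + 1)), where the profiles share libraries and depth. Nearest to P2ry14 were Aldoc (0.87), Khk (0.86) and Clec9a (0.85), the last a cDC1 receptor. Nearest to Adora2a were Ccl5 (0.92), Birc2 (0.91) and Rhoc (0.90). P2ry6 was nearest to Sept3 (0.83), Adora3 to Ccl2 (0.80), P2rx7 to Rcn2 (0.80) and Entpd1 to Selenos (0.80). Nt5e was nearest to Dgka, Gimap3 and Gimap8 (0.91), and P2ry12 to Pdzd4 (0.89).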

How the data were processed

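Per the file headers, the authors deposited raw UMI counts per gene and antibody from Cell Ranger 3.1.0, both libraries aggregated in 1 matrix of 31790 barcodes. No header states a depth adjustment during aggregation. The submitters' processing notes name STAR, Seurat 3.1.4 and mm10. The barcode suffix gives the library, which no label ties to a replicate number. Library totals were 99617992 and 129565040 RNA UMIs. Cells with at least 500 genes, 1000 UMIs and under 10% mitochondrial UMIs were kept, and 546 and 1064 doublets called by Scrublet were removed. The libraries shared 61 barcode sequences, 41 among kept cells. Clusters (scanpy 1.11.5, Leiden) were built without the 8 genes and named from marker genes.

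UMIs were summed per step and library. The edgeR 4.0.16 quasi-likelihood test (R 4.3.3, TMM, filterByExpr, 2-sided, Benjamini-Hochberg at 0.05) used library as a block, since every step was drawn from the cells of both libraries. Deviations of steps of 1 library from the step means correlated at a median of 0.066 over 15 pairs (−0.03 to 0.33). An SE is the log2 fold change over the root of the F statistic, and antibody intervals use the t distribution with the model's degrees of freedom. Tests on simulated late against immature cDC1 counts of 8728 genes recovered 40 of 40 genes changed by log2 3, 40 of 40 by 2, 24 of 40 by 1, 12 of 40 by −1 and 35 of 40 by −2, with 0.0820% false calls. All simulated sums shared the same mean profile and a fixed spread, and only these genes were changed, in late cDC1 alone. In the data 61.0% of genes were called in that comparison, so the simulated rates need not hold there. Shares have exact binomial (Clopper-Pearson) 95% intervals, and intervals and floors (3 counts) cover counting error only.

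Members and lists were chosen with earlier results of these data known. All 8 genes were described without tests. Other pathway genes named with values were those past the threshold with the largest change in late cDC1, and P2ry13, Adora2b and Panx1 by level. Alternatives were other scalings, filters, step limits, gates and DESeq2 1.42.0, and lineage in accord with the cluster and controls without IgG1_Rat_l were added after seeing the data.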

Additional observations from a re-analysis of the deposited data

Results flagged for a closer look

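For 4 pathway genes the change from immature to late cells differed between cDC1 and cDC2 (edgeR interaction, adjusted over all genes). The log2 difference, cDC1 minus cDC2, was −1.33 for Il1b (edgeR adjusted p = 4.52e-07), −1.34 for Gpr171 (edgeR adjusted p = 0.0294), −2.08 for Bst1 (edgeR adjusted p = 0.0189) and 0.77 for Gsdmd (edgeR adjusted p = 0.0187). Bst1, an ectoenzyme that consumes NAD, was at 20.6 and 25.2 CPM in immature and 18.5 and 33.7 in late cDC1, and at 2.99 and 4.62 and then 26.3 and 11.1 in cDC2. Il1b kept its call in all alternatives run. Gpr171, Bst1 and Gsdmd lost theirs with a gate of 4 antibody UMIs (−1.68, −1.78 and 0.70, with edgeR adjusted p = 0.104, 0.419 and 0.162) and with doublets kept and cells clustered anew (−0.80, −1.69 and 0.53, with edgeR adjusted p = 0.0776, 0.0511 and 0.0955). Gpr171 and Gsdmd also lost it with stricter steps (−0.71 and 0.59, edgeR adjusted p = 0.688 and 0.295), and Bst1 with looser steps (−1.66, edgeR adjusted p = 0.0518) and without the replicate block (−2.07, edgeR adjusted p = 0.0531).

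P2ry14 also stood high in a cluster that was left out of the classes compared. The unnamed cluster 23, with 113 cells in each library and a median of 1600.5 UMIs, had 859 and 708 CPM from 172 and 155 UMIs, in 64.6% and 60.2% of cells. Its cDC1 marker score was the highest of all clusters, at 0.968 against 0.917 in the cDC1-like cluster 0. It was left unnamed for its low depth and for the lack of a class marker among its 10 leading genes. Whether its cells are shallow cDC1 was not tested.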

How the results depend on the processing

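Counts of genes called in late cDC1, intermediate cDC1 and late cDC2 stayed within 1.5 times the main count in all 30 alternatives, while genes whose change differed between the lineages (769) numbered 462 with stricter steps. Without the replicate block, 5495, 3300 and 3118 genes were called in late cDC1, intermediate cDC1 and late cDC2, and 51 and 38 antibodies in late cDC1 and late cDC2. In late cDC1, 65 of 170 antibodies were called in the main setting. The number was 18 with isotype scaling, 42 with stricter steps, 32 with a gate of 4 UMIs and 43 with doublets kept (cells clustered anew). Fewer antibodies were tested above the isotype controls, with 35 of 66 called, and above the controls other than IgG1_Rat_l, with 38 of 86. In late cDC2 (44), 19 were called with isotype scaling and 21 with it less IgG1_Rat_l. The log2 ratio of P2RY12 antibody in cDC1 (1.88) was 1.80 with looser steps, 1.98 with stricter steps, 1.42 with a gate of 4 UMIs, 1.63 with doublets kept and 1.85 to 1.91 with 1 library left out, and in cDC2 (1.19) 1.79 with doublets kept and 0.96 to 1.52. Signs reversed for Ampd2 in late cDC2 (stricter steps 0.76, gate of 4 UMIs 0.0272, doublets kept 0.0389), Il1b in intermediate cDC1 (no filter −0.0443, stricter steps −0.10, lineage in accord −0.00611), Panx1 with doublets kept (0.38), CD39 in late cDC1 above the isotype controls (0.0199, and 0.0212 without IgG1_Rat_l), and with stricter steps CD39 (0.0379) and P2X7R (0.29) in late cDC2. The cause was not tested. Of 92 log2 ratios of 6 of the 8 genes (P2ry12 and Nt5e were not run), 32 moved by more than the spread between libraries and 0 reversed. Ratios of a class with no UMI were left out where the floor pointed the other way, so those could not reverse. The 92 include P2rx7 and Adora3 in late cDC2, which had too few UMIs to show a direction. With 1 library left out no residual degrees of freedom remained, so those fits were not run. Late cells were few (134 and 166 cDC1, 81 and 94 cDC2), which limits the low genes to a handful of UMIs.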
